A study of Mus musculus with 6 samples.

Results

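Genes of DNA replication and S phase, 52 in all, were followed in regulatory T cells (Tregs) that had lost Zfp335, a zinc finger transcription factor. The 52 genes were taken by symbol from the 32285 rows of the raw count table, and all 52 were among the 17307 genes with enough reads to be tested. The set covers origin licensing, helicase activation, the sliding clamp and its loader, the replicative polymerases, lagging strand joining, single-strand DNA binding, nucleotide supply, chromatin copying, control of the G1/S transition, and a few checkpoint and repair genes that act at forks.

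The study deleted Zfp335 in adult mice and sequenced RNA of their splenic Tregs, with 3 libraries per genotype. KO libraries came from CD4+CD25+ cells of C57BL/6 mice with ERCre and floxed Zfp335 (ERCre+ Zfp335 f/f). WT libraries came from mice that the sample labels call wild-type littermates, and that the study's methods describe as ERCre mice given tamoxifen like the KO mice. By those methods the mice were 6 weeks old at the start, received 3 injections between day 1 and day 5 and were killed on day 7. ERCre is a Cre recombinase joined to a hormone-binding domain that tamoxifen releases, so it is not limited to Tregs and acts in the other cells of the mouse as well. The labels do not say whether each library came from its own mouse. Each KO library held both Xist, the RNA of the inactive X chromosome, and Y-linked RNA, so it may be a pool of mice. The p-values therefore measure the spread between these libraries, which may be partly technical.

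Cells license their replication origins in G1, when ORC, CDC6 and CDT1 load the ring-shaped MCM2-7 helicase onto DNA, and they fire those origins in S phase once CDC45 and the GINS complex have joined the helicase. Many of the genes involved are targets of E2F transcription factors and are transcribed together as a cell leaves quiescence. Tregs are a dividing population in the spleen even without immunization, so their RNA holds both a replication and a mitotic component. In bulk RNA, fewer cells in a cycle phase and less RNA per cell cannot be told apart.

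E2F-type letters were more frequent in the promoters of the replication genes than in those of all tested genes, and a few promoters are shown here because their letters differ from those of the mitotic genes described later. RefSeq windows (GRCm38.p6, 250 bases before to 50 bases after the annotated start) were matched for 43 of the 52 genes, and were searched on both strands for the E2F-type letters TTTGGCGC, TTTCCCGC, TTTGCCGC and TTTCGCGC, with a gene counted when any of its windows held a match. Matches that overlap each other on opposite strands are both included. Stretches upstream of the start are given in the direction of the gene, with the matched letters in capitals, for Uhrf1 at chr17:56304102-56304161 (plus strand), Mcm5 at chr8:75109334-75109393 (plus), Mcm6 at chr1:128359719-128359778 (minus) and Cdc6 at chr11:98907987-98908046 (plus).
Uhrf1: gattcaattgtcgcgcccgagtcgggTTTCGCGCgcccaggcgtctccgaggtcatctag
Mcm5: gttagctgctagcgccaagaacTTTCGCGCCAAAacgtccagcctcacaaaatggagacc
Mcm6: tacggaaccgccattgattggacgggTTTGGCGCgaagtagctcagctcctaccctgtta
Cdc6: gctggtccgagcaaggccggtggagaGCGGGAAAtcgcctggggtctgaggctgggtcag
In Mcm5 the capitals hold overlapping matches that read in opposite directions. The E2F-type letters were present in the windows of 15 of the 43 matched genes (34.9%), against 4.31% of the 12380 tested genes with a window. Of the 4 genes shown, Uhrf1 was lower in KO Tregs and the others were not called. The stretches shown for Uhrf1 and Cdc6 lie before the RefSeq start but inside the longer GENCODE gene models, which begin at 56303321 and 98907801, and those of Mcm5 and Mcm6 lie outside them.

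Zfp335 itself checked the labels. Its RNA stood at 124.4, 120.7 and 115.2 CPM (counts scaled to library size, with TMM factors) in the WT libraries and at 14.96, 14.27 and 15.12 CPM in the KO libraries. The log2 fold change was -3.02 (SE 0.046, adjusted p = 1.2e-13 by edgeR's quasi-likelihood test), and the groups lay far apart.

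The libraries held 133283969 to 209041812 counts each, and the lowest count of any replication gene in any library was 620. The Treg identity of the samples showed in Foxp3, Il2ra, Ctla4, Ikzf2, Cd3e and Cd4, which summed to 3353 to 3393 CPM in WT and 3434 to 3491 CPM in KO. Of these Ctla4 was called higher (log2 fold change 0.65), Foxp3 (-0.11, adjusted p = 0.0163) and Il2ra (-0.15, adjusted p = 0.00657) were called lower, and the others were not called. Markers of other spleen cells were at far lower levels and were mostly lower in KO. The 5 B cell markers summed to 45.45 to 49.47 CPM in WT and 21.09 to 23.02 CPM in KO, and all 5 were called lower. All 8 neutrophil markers were lower (21.95 to 29.26 against 1.366 to 2.604 CPM), as were 5 of 7 red cell markers (37.37 to 44.07 against 2.42 to 2.932 CPM) and 3 of 5 monocyte and macrophage markers (41.31 to 45.53 against 26.91 to 29.25 CPM). Of the plasma cell markers 1 of the 2 tested was lower (12.83 to 15.15 against 5.989 to 6.86 CPM for the list of 3), and none of the 4 CD8 T and NK cell markers was called (15.02 to 15.9 against 14.39 to 15.81 CPM). The part of these cells in the replication gene values was not tested. Xist averaged 0.272 CPM in WT and 134.6 CPM in KO, where the libraries stood at 123.9, 135.2 and 144.7 CPM. Y-linked genes were read in every library, though not all at equal levels. Ddx3y (log2 fold change -0.38), Kdm5d (-0.28) and Uty (-0.54) were called lower in KO, and Eif2s3y (0.01) was not called. The labels do not give the sex of the mice, and a difference in sex make-up between the groups cannot be told apart from genotype.

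The replication genes changed little as a group when Zfp335 was deleted. At an adjusted p under 0.05 by edgeR's quasi-likelihood test, 9 of the 52 genes were called (17.3%), against 24.1% of all genes tested. Those that fell were 6 (11.5%, against 12.1% of all genes), E2f8, Rrm2, E2f2, Ccne1, Rpa1 and Uhrf1. Those that rose were 3 (against 12.0% of all genes), Cdt1, Ung and Pcna. The median log2 fold change of the 52 was -0.03, beside -0.0042 for all genes tested, with 33 genes below 0 and 19 above. None of the 52 passed the study's stricter cutoff of at least 1.5-fold with p under 0.05 and adjusted p under 0.1, which 6.95% of all genes passed. Among the 9067 genes in the CPM range of the 52, a closer comparison, 31.9% were called (14.8% lower and 17% higher) and 240 passed the stricter cutoff.

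The number of genes called lower depended on WT replicate 1. Without that library 16 of the 52 fell (30.8%, against 14.1% of all genes tested in that fit) and 5 rose (against 14.1%). The 9 calls above were among those 21, and the added ones were Cdc6, Mcm4, Mcm6, Gins1, Rfc5, Prim1, Pole2, Rpa3, Rrm1 and Exo1 on the lower side and Pold1 and Pold2 on the higher side. Their sizes stayed small, from -0.37 for Gins1 to 0.14 for Pold1 on the log2 scale, although E2f8 then reached -0.56. In WT replicate 1 the median log2 CPM of the 52 genes was -0.0213 relative to the mean of the 6 libraries, below 0.053 and 0.00876 in the other WT libraries and also below the KO libraries, which lay between -0.0197 and -0.00519.

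The intervals describe the spread between these libraries only, and do not bound the effect of genotype across mice. The 95% interval of the fold change lay within 1.5-fold either way for 50 of the 52 genes, the exceptions being E2f8 and Gins2, and within 0.3 either way on the log2 scale for 38. In 14 genes every KO library was below every WT library (19.1% of all genes tested behaved so), in 11 every KO library was above (19.3% of all genes), and in 27 the groups overlapped. An exact two-sided permutation test on 3 against 3 libraries cannot give a p below 0.1, so the calls rest on the fit across all genes.

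**Figure D1:**
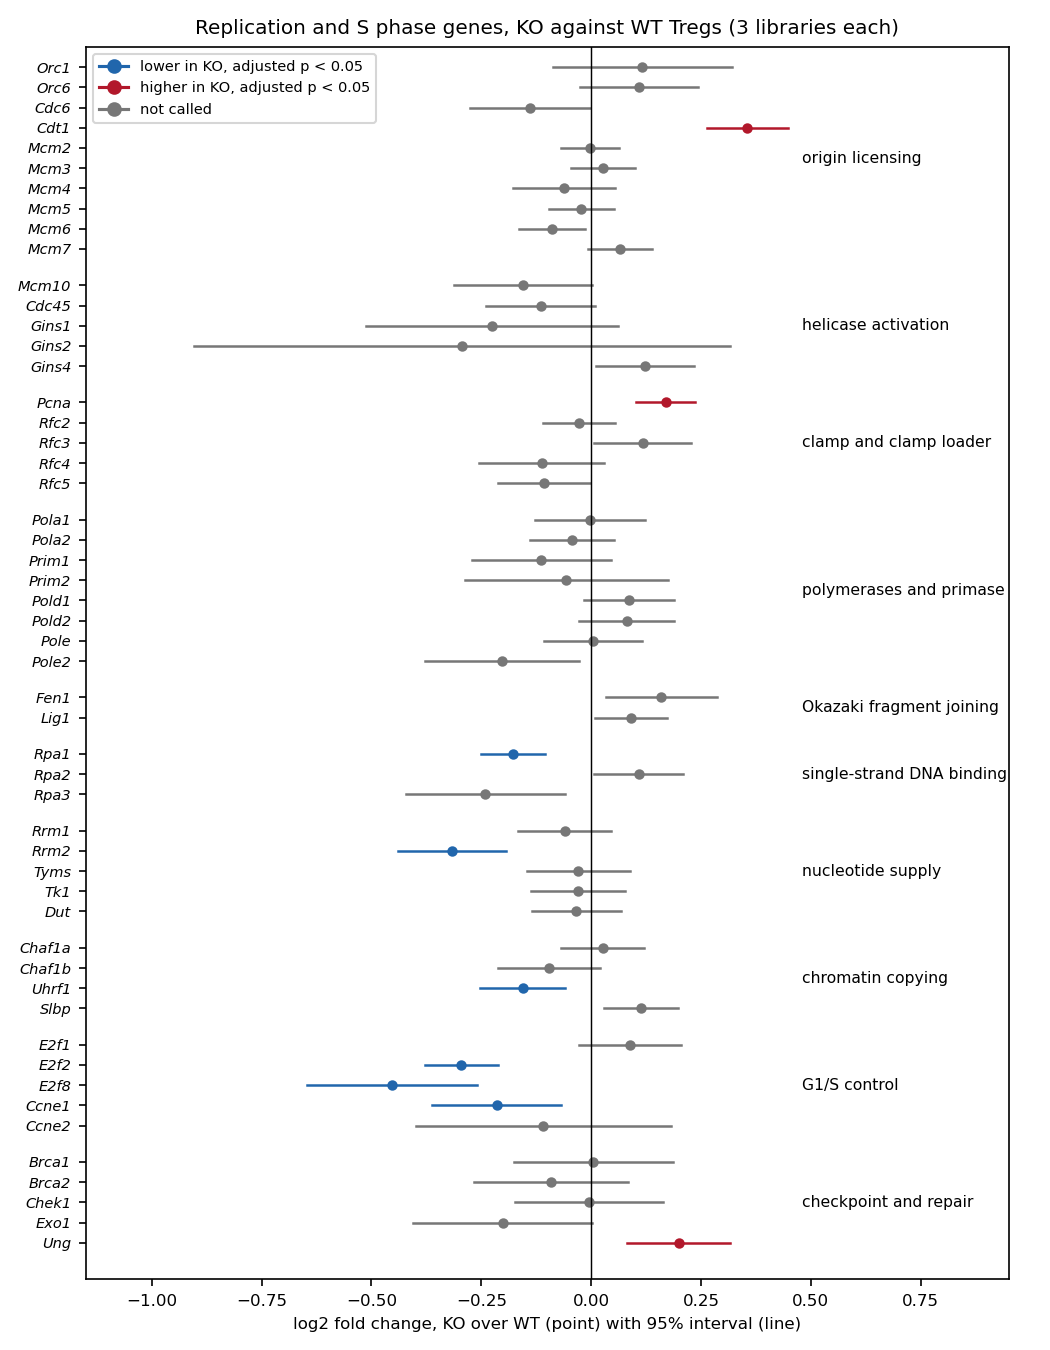
Log2 fold change of each of the 52 genes in KO over WT Tregs (point, horizontal axis) with its 95% interval (line), ordered by role from top to bottom. The 6 genes called lower are blue, the 3 called higher are red, and the 43 grey ones were not called. Most points sit close to 0, and Gins2 has the widest line.

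Levels in WT Tregs spanned a wide range when divided by transcript length. Pcna, the sliding clamp that holds polymerases on DNA, was the highest at 131.3 CPM per kilobase (SD 1.11). The MCM ring subunits came next, with Mcm6 at 62.6, Mcm5 at 49.5, Mcm2 at 46.8, Mcm7 at 43.9 and Mcm3 at 41.9 CPM per kilobase, while Mcm4 stood lower at 32.8. The SDs of these 6 levels ran from 0.131 for Mcm2 to 2.89 for Mcm4, so Mcm6 stood clear of the others. The repair genes Exo1, at 0.741, and Brca2, at 1.11 CPM per kilobase, and the origin recognition gene Orc1, at 1.53, were lowest. Lengths were those of the principal transcript in GENCODE M21, so a level per kilobase is only as good as that choice.

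**Figure D2:**
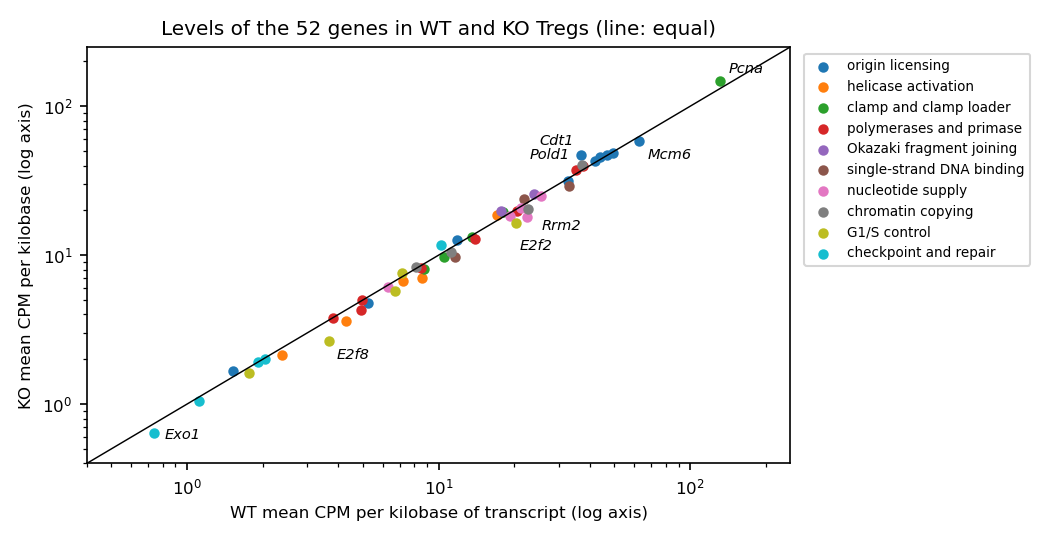
Mean level of each of the 52 genes in WT (horizontal) and KO (vertical) Tregs, in CPM per kilobase of transcript on log axes, colored by role. The diagonal marks equal levels. Points hug the line from Exo1 at 0.741 to Pcna at 131.3 CPM per kilobase in WT, with E2f8, E2f2 and Rrm2 below it and Cdt1 above it.

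Among the 10 licensing genes, 1 rose and none was called lower. Cdt1, the factor that helps load the MCM ring, was read at 86.0, 77.1 and 78.5 CPM in WT and at 103.2, 103.4 and 102.6 CPM in KO Tregs. Every KO library was above every WT library, and the KO values were closer together than the WT values. The increase was 27.9% (log2 fold change 0.36, SE 0.043, adjusted p = 4.66e-05), the largest rise in the set. Cdt1 lies on chromosome 8 at 122568015 to 122573554 (plus strand, GRCm38).

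None of the MCM ring genes was called, although Mcm6 came close. Mcm6, the licensing gene with the most counts, was read at 175.0, 183.9 and 187.4 CPM in WT and at 173.7, 169.5 and 170.1 CPM in KO. The groups did not overlap, but they came within about 1 CPM of each other at WT replicate 1, and the log2 fold change of -0.09 (SE 0.035) was not called (adjusted p = 0.0841). It passed the threshold with upper-quartile scaling (adjusted p = 0.0423), with library size only (adjusted p = 0.0234) and with a GC trend removed (adjusted p = 0.0269), as well as without WT replicate 1. Mcm2 was almost level, at 158.0, 158.1 and 157.3 CPM in WT and 158.4, 158.0 and 156.1 CPM in KO, with a log2 fold change of 0.00 and a 95% interval from -0.07 to 0.06. The 4 remaining subunits ranged from -0.06 (Mcm4) to 0.07 (Mcm7), so 0 of 6 were called. Of the 50-base stretches of the Mcm7 transcript 23.3% also occur in other genes, mostly in Gm5487. Mcm2, Mcm4, Mcm5 and Mcm6 had point values below 0 and Mcm3 and Mcm7 above it, though the sign of Mcm3 and that of Mcm2 flipped under some of the alternative settings. Orc1 and Orc6, subunits of the origin recognition complex, had log2 fold changes of 0.12 and 0.11, and Cdc6, the loading ATPase, had -0.14 (adjusted p = 0.138). None of these passed the test.

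No gene of helicase activation was called. Gins2, a GINS subunit and the one with the most counts in this group, was read at 35.6, 38.7 and 25.9 CPM in WT and at 32.4, 28.7 and 21.5 CPM in KO. Its libraries spread widely within each group, the groups overlapped, and the 95% interval ran from -0.90 to 0.32 on the log2 scale. Of the 50-base stretches of its transcript 65.4% also occur in other genes. The main one is Gse1 on the other strand, so reads of Gins2 and Gse1 may not be separable without strand. Gins1 (log2 fold change -0.23), Mcm10 (-0.16) and Cdc45 (-0.12) had values below 0 and Gins4 (0.12) above it, and Mcm10, Cdc45 and Gins4 did not overlap between groups.

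Pcna rose, and no gene of its loader was called. The clamp was read at 200.9, 199.4 and 197.5 CPM in WT and at 220.5, 227.3 and 224.6 CPM in KO. All KO libraries were above all WT libraries, with a gap wider than the range within either group. The increase was 12.5% (log2 fold change 0.17, SE 0.031, adjusted p = 0.00142). Pcna lies on chromosome 2 at 132249162 to 132253314 (minus strand), and 19.1% of its 50-base stretches are shared, mostly with the pseudogene Pcna-ps2. The clamp loader genes Rfc2, Rfc3, Rfc4 and Rfc5 had log2 fold changes between -0.11 and 0.12 and none was called.

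The 8 polymerase and primase genes, which copy the DNA and lay down its primers, gave no call in either direction. Pold1, the catalytic subunit of the lagging strand polymerase delta, was read at 139.8, 124.8 and 125.5 CPM in WT and at 142.5, 140.4 and 131.7 CPM in KO. Here the WT replicate 1 value lay among those of the KO libraries, and the log2 fold change was 0.09 (SE 0.047, adjusted p = 0.215). Pole, which copies the leading strand, stood at 0.00 with a 95% interval of -0.11 to 0.12. Pole2, the accessory subunit of polymerase epsilon, came nearest to the threshold with a log2 fold change of -0.20 (adjusted p = 0.0893) and with every KO library below every WT library. The primase genes Prim1 (-0.11) and Prim2 (-0.06) and the polymerase alpha genes Pola1 (0.00) and Pola2 (-0.04) overlapped between groups, as did Pold2 (0.08).

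Neither gene of lagging strand joining was called, and both had values above 0. Lig1, the ligase that seals Okazaki fragments, was read at 76.0, 78.5 and 74.3 CPM in WT and at 82.8, 82.2 and 78.8 CPM in KO. The groups were separate by a narrow margin, and the log2 fold change was 0.09 (SE 0.038, adjusted p = 0.107). Fen1, the flap nuclease of the same step, had a log2 fold change of 0.16 (adjusted p = 0.0671), but 76.7% of its 50-base stretches are shared, mostly with Gm10143.

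Of the 3 subunits of RPA, the complex that coats single-stranded DNA, 1 was called. Rpa1, the large subunit, was read at 163.5, 166.9 and 170.2 CPM in WT and at 150.6, 143.9 and 148.0 CPM in KO. Its groups were well apart, and it fell by 11.6% (log2 fold change -0.18, SE 0.034, adjusted p = 0.00183). Rpa1 lies on chromosome 11 at 75298166 to 75348324 (minus strand). Rpa2 had a log2 fold change of 0.11 (adjusted p = 0.12) and Rpa3 one of -0.24, just outside the threshold (adjusted p = 0.0521). Rpa3 was below WT in every KO library and was called lower under 8 of the 18 alternative settings.

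Of the 5 nucleotide supply genes, only Rrm2 was called in the fit with all libraries. Rrm2 encodes the cell cycle-regulated small subunit of ribonucleotide reductase, which makes deoxyribonucleotides. It was read at 44.7, 53.1 and 49.4 CPM in WT and at 38.6, 39.9 and 39.7 CPM in KO. The KO libraries were nearly equal and all below WT, where replicate 1 was the lowest. Rrm2 fell by 19.7% (log2 fold change -0.32, SE 0.056, adjusted p = 0.00117) and lies on chromosome 12 at 24708241 to 24714146 (plus strand). Its partner Rrm1, the large subunit and the group's most abundant RNA by counts, was read at 71.2, 80.3 and 78.5 CPM in WT and 71.1, 77.0 and 72.4 CPM in KO, with overlapping groups (log2 fold change -0.06, adjusted p = 0.426). Thymidylate synthase (Tyms), thymidine kinase (Tk1) and dUTPase (Dut) each had a log2 fold change of -0.03, with overlapping groups.

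Chromatin copying gave 1 call among 4 genes. Uhrf1, which recognizes hemimethylated DNA behind the fork and recruits the maintenance methyltransferase, was read at 77.3, 84.8 and 81.0 CPM in WT and at 69.5, 73.0 and 75.7 CPM in KO. The highest KO library came close to the lowest WT library, and the decrease was 10.2% (log2 fold change -0.16, SE 0.045, adjusted p = 0.0223). This call was lost when WT replicate 2, KO replicate 1 or KO replicate 2 was left out. Uhrf1 lies on chromosome 17 at 56303321 to 56323486 (plus strand) and shares 15.4% of its 50-base stretches, mostly with Gm5648. Slbp, the histone mRNA binding protein, had a log2 fold change of 0.11, just outside the threshold (adjusted p = 0.0521), and the chromatin assembly genes Chaf1a (0.03) and Chaf1b (-0.10) overlapped between groups. Of the 50-base stretches of Chaf1a 49.7% are shared, mostly with Ubxn6 on the other strand.

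Of the 5 G1/S regulators 3 were called, all lower (60%, against 12.1% of all genes). Another 22 G1/S regulators are among the other replication genes described below. Of those 22, 5 were called higher (22.7%, against 12.0% of all genes) and 2 lower (9.09%), with a median log2 fold change of 0.01. E2f8, an atypical E2F that represses E2F targets late in S phase, was read at 11.5, 14.6 and 14.5 CPM in WT and at 10.3, 9.26 and 10.02 CPM in KO. WT replicate 1 lay between the other WT libraries and the KO group, which was lower in each library. E2f8 had the largest decrease of the 52, at 26.9% (log2 fold change -0.45, SE 0.09, adjusted p = 0.00245). It overlaps Gm2788 on the other strand, and 8.26% of its 50-base stretches are shared with other genes, of which Gm2788 is the main one.

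E2f2, classed among the activating E2Fs, was the most abundant of the 5 G1/S regulators in the set. It was read at 97.4, 99.3 and 91.9 CPM in WT and at 77.6, 80.0 and 77.8 CPM in KO, with a clear gap between the groups. The decrease was 18.5% (log2 fold change -0.30, SE 0.038, adjusted p = 9.66e-05). Cyclin E1 (Ccne1), the cyclin that drives S phase entry with CDK2, was read at 13.1, 14.4 and 12.7 CPM in WT and at 11.5, 12.2 and 11.1 CPM in KO. The groups were separate by less than 1 CPM, and the decrease of 13.9% (log2 fold change -0.22, SE 0.068, adjusted p = 0.0352) lost its call when WT replicate 2 or any of the KO libraries was left out. Cyclin E2 (Ccne2, -0.11) overlapped between groups, and E2f1 had a log2 fold change of 0.09 (adjusted p = 0.275). E2f8 and Ccne1 lie on chromosome 7, at 48866429 to 48881596 and at 38097984 to 38107534 (both minus strand), and E2f2 lies on chromosome 4 at 136172394 to 136196057 (plus strand).

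Of the 5 checkpoint and repair genes, Ung was called. This uracil glycosylase removes uracil from newly copied DNA. Its RNA stood at 20.7, 21.9 and 23.0 CPM in WT and at 26.2, 24.8 and 24.2 CPM in KO, with the groups separate by just over 1 CPM. The increase was 14.8% (log2 fold change 0.20, SE 0.055, adjusted p = 0.0176), and the call was lost when WT replicate 2, KO replicate 1 or KO replicate 2 was left out. Ung lies on chromosome 5 at 114130386 to 114139323 (plus strand). The homologous recombination genes Brca1 and Brca2 and the checkpoint kinase gene Chek1 had log2 fold changes between -0.09 and 0.01, and Exo1, a nuclease of mismatch repair and end resection, had -0.20 (adjusted p = 0.15). All 4 overlapped between groups.

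**Figure D3:**
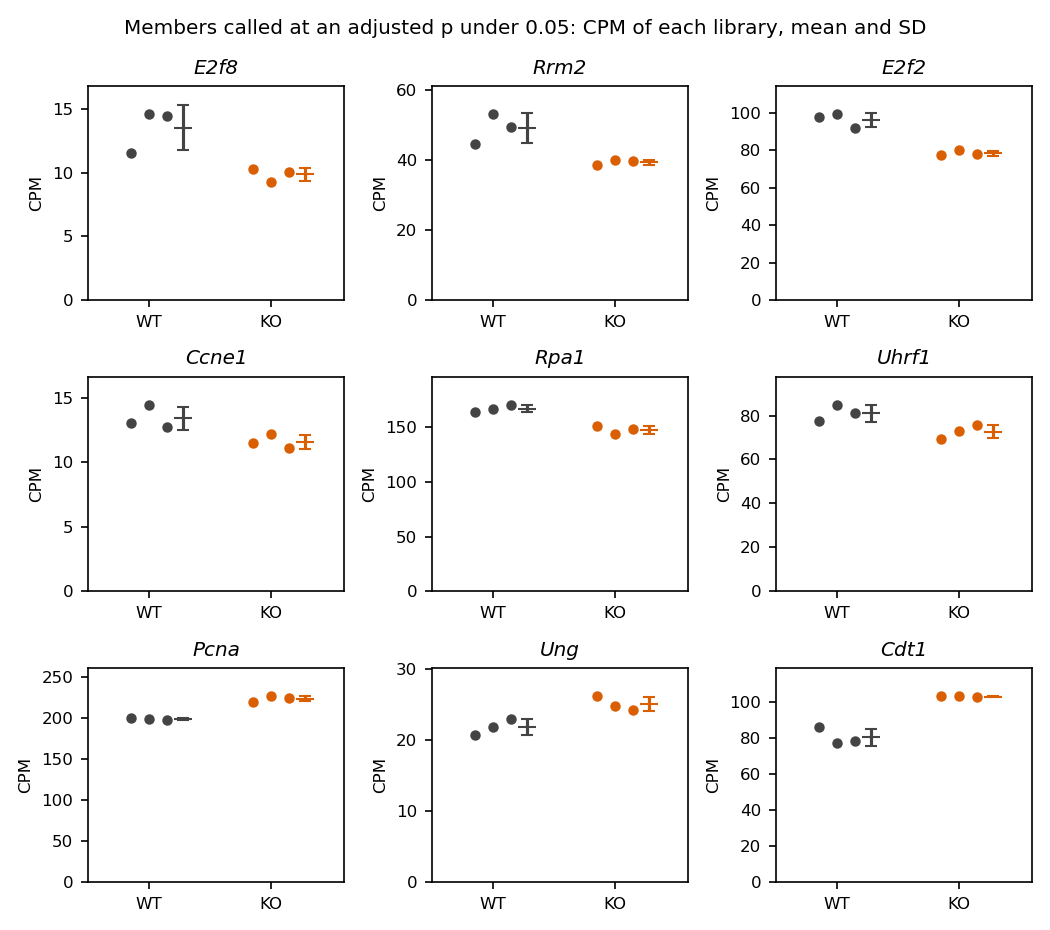
CPM of each library (points) with the mean and SD of each group (bar) for the 9 called genes, in WT (grey) and KO (orange) Tregs, each panel starting at 0. The 6 genes from E2f8 to Uhrf1 are lower in all 3 KO libraries and the 3 genes Pcna, Ung and Cdt1 are higher in all 3, and the gaps are small beside the levels.

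The E2F-type letters did not separate the called genes from the others. They were found in 2 of the 6 genes called lower (E2f2 and Uhrf1), in 1 of the 3 called higher (Cdt1) and in 12 of the 34 uncalled genes that had a window. The 15 genes with the letters had a median log2 fold change of 0.00 and the 28 without them one of -0.03, a description without a test. A match is a string of letters and says nothing of what binds there.

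Other replication genes, 80 in number, such as remaining ORC and polymerase subunits, cyclins and CDK inhibitors, were set beside the 52. On this list 15 fell (18.8%, against 12.1% of all genes) and 10 rose (12.5%, against 12.0%). Together 31.2% were called, against 24.1% of all genes and 31.9% of those in the CPM range of the 52. The median log2 fold change was -0.01. The count of those that fell was 9 without WT replicate 2 and 8 without KO replicate 1. In those fits 7.88% and 8.06% of all genes tested were called lower. The count of those that rose was 6 without KO replicate 3, where 8.40% of all genes were called higher. Rad1 (log2 fold change -0.46, adjusted p = 0.000317) and Rad9a (-0.34, adjusted p = 4.17e-05), which belong to the checkpoint clamp loaded at stalled forks, and Mcmbp (-0.30, adjusted p = 0.000336), which binds MCM subunits, had the largest decreases among the called. Behind Cdkn1a, the largest increases were those of Dtl (0.27, adjusted p = 0.0062), part of the ubiquitin ligase that degrades CDT1, and Nasp (0.25, adjusted p = 0.00104), a histone chaperone.

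Cdkn1a, which encodes the p21 inhibitor of cyclin-dependent kinases and of PCNA-dependent replication, moved more than any replication gene on either list. It was read at 8.39, 7.84 and 7.56 CPM in WT and at 25.0, 26.0 and 25.8 CPM in KO. The groups were 3.22-fold apart with little spread within either (log2 fold change 1.69, SE 0.059, adjusted p = 5.24e-10).

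The 22 genes of G2 and mitosis gave another picture than the replication genes. Of these 16 fell (72.7%, against 12.1% of all genes), none rose, and all 22 had a log2 fold change below 0, with a median of -0.35 where the replication genes had -0.03. Mki67, the proliferation marker Ki-67, was read at 174.8, 216.4 and 207.0 CPM in WT and at 139.1, 157.8 and 155.4 CPM in KO. Its WT replicate 1 value again lay nearest to the KO libraries, and the decrease was 24.3% (log2 fold change -0.40, SE 0.087, adjusted p = 0.015). The Mki67 call was lost with no filter on low counts (adjusted p = 0.0545) and without WT replicate 3 (adjusted p = 0.11). Nusap1, a spindle protein gene, had the largest decrease of the 22 (-0.60, adjusted p = 0.000275). In summed CPM the 22 genes ran from 642.7 to 750.2 in WT and from 531 to 572.7 in KO, while the 52 replication genes ran from 2710 to 2775 in WT and from 2696 to 2746 in KO, where the groups overlapped. The markers of neutrophils and red cells and their precursors fell in the same libraries (8 of 8 and 5 of 7), and their part in the G2/M values was not tested. The difference between the lists was not tested either. Both lists were chosen with earlier results of these data known, so their shares of calls are a description only.

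**Figure D4:**
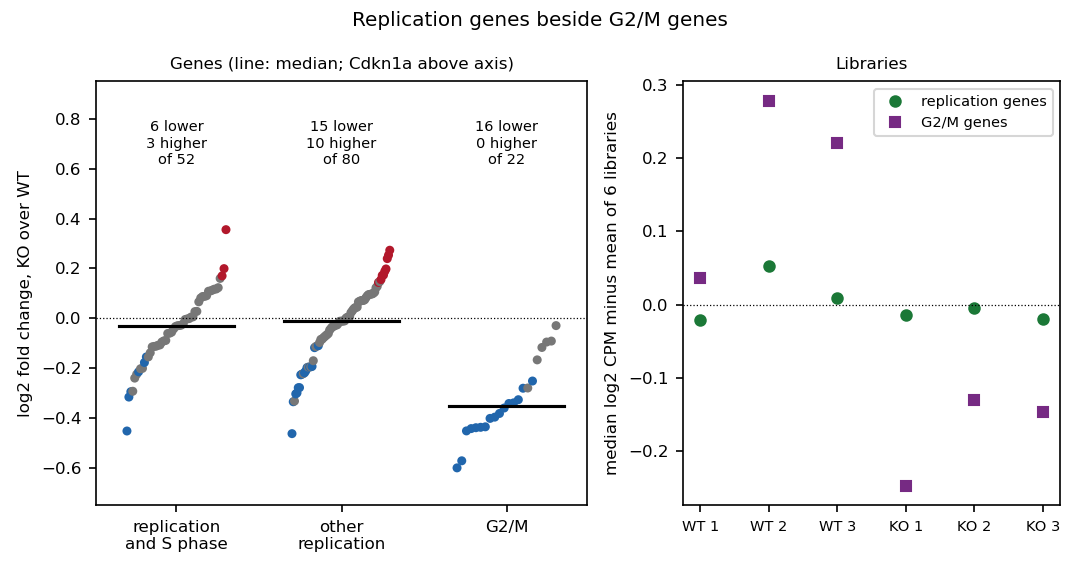
Left, log2 fold change of KO over WT for each gene of 3 lists (vertical axis), with blue for called lower, red for called higher, grey for not called and a line at the median; Cdkn1a, at 1.69, lies above the axis. Right, median log2 CPM of the 52 replication genes (circles) and of the 22 G2/M genes (squares) in each library relative to the mean of the 6 libraries. The G2/M medians are above 0 in each WT library and below 0 in each KO library, while the replication medians stay within 0.053 of 0.

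Promoter letters also differed between the lists. The letters TTTGAA, the core of the cell cycle homology region found at genes of late cell cycle, were searched on both strands and were present in the windows of 12 of the 17 matched G2/M genes (70.6%), in 6 of the 43 replication genes (14%) and in 15.1% of tested genes. For contrast with the replication promoters above, Mki67 at chr7:135716445-135716504 and Top2a at chr11:99024190-99024249 (both minus strand) are shown with these letters or their reverse complement in capitals.
Mki67: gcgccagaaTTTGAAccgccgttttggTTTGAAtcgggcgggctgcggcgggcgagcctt
Top2a: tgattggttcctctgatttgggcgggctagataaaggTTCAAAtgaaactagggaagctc
The E2F-type letters were found in 1 of the 17 G2/M genes (5.88%) and in 20 of the 64 matched genes among the other replication genes (31.2%). Top2a, the topoisomerase that untangles sister chromatids, had a log2 fold change of -0.36 (adjusted p = 0.000312) and was picked for display after its value was seen. The presence of letters does not tell which factor acted.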

How the data were processed

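Bulk RNA-seq of splenic Tregs was measured in 6 libraries, 3 WT and 3 KO, grouped by the sample labels. The authors deposited raw gene counts. The submitters' processing notes name HISAT2, the mm10 build and DESeq2, while the counting tool, annotation and strand setting are not given in the sources used here. Counts of 1 were rarer than counts of 4 (620 against 2579 entries), so a count may not be 1 fragment, and an alternative divided counts by 4. Repeated symbols (40) were kept as separate rows, and 0 columns were left unused.

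Counts were fitted in R 4.3.3 with edgeR 4.0.16 (TMM scaling, filterByExpr, robust quasi-likelihood test without a replicate term, Benjamini-Hochberg adjustment over the 17307 genes tested), and a gene was called at an adjusted p under 0.05. The scripts were tested on simulated data. DESeq2 1.42.0, limma-voom (limma 3.58.1), other scalings and filters, a replicate block and omission of each library were alternatives. The study's supplemental cutoffs were described for another RNA-seq experiment of the same study. The 52 genes and all lists were chosen with earlier results of these data known. Named genes were Zfp335, in each role the member with the highest WT CPM and the called members, the 3 largest decreases and increases among the other replication genes, Cdkn1a, Mki67 and the largest G2/M change, with values also given for uncalled members. Same-numbered libraries did not deviate together (correlations 0.052, -0.00985 and -0.0274 over 11078 genes), so numbers were not taken as pairs. No 2 libraries agreed within the sampling noise expected if each count were a single fragment. That comparison cannot tell libraries of separate mice from separate preparations of the same cells. A listed marker gene is not reported here. Transcript lengths, overlaps and shared 50-base stretches came from GENCODE M21 (GRCm38), and promoters came from RefSeq. In GENCODE 21 of the 52 genes have another gene on the opposite strand, and 9 share more than 10% of stretches with other genes.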

Additional observations from a re-analysis of the deposited data

How the results depend on the processing

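Of the 9 called replication genes, 6 (Cdt1, Pcna, Rpa1, Rrm2, E2f2 and E2f8) were called under all 18 alternatives, and Uhrf1, Ccne1 and Ung lost their calls only where a library was left out. With a library left out, the 52 genes gave 4 to 16 lower calls, 2 to 5 higher calls and 0 past the stricter cutoffs. Their median log2 fold change was -0.0623 to -0.0207. The other replication genes gave 8 to 19 lower and 6 to 13 higher calls. The G2/M genes gave 12 to 19 lower and 0 higher calls, with a median of -0.415 to -0.321. In the same fits 7.88% to 14.1% of all genes tested were called lower and 7.55% to 14.1% higher. DESeq2 called 5 replication genes higher (Fen1 and Slbp added), where 12.9% of all genes were called higher. It called 7 lower (13.5%, Rpa3 added), against 12.7% of all genes. The stricter cutoffs left 0 lower. With the replicate block, 4227 genes were called in all against 4170, all 9 member calls were kept and no call was lost, while Gins2 (-0.28, adjusted p = 0.00442) and Slbp were added. Scaling by library size only gave 2575 genes lower and 1622 higher over the table, against 2088 and 2082, with an all-gene median of -0.0349, and kept the 9 calls while adding Mcm6 and Rpa3 as lower, as upper-quartile scaling did. Rpa3 was called under 8 of the 18 alternatives. The cause of each shift was not tested.

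Among the uncalled genes, 10 changed sign under some alternative, with no log2 fold change above 0.0717 in size after the change. With upper-quartile scaling Pole was at -0.0101 and Brca1 at -0.00924. With library size only Pole was at -0.0264, Brca1 at -0.0255, Mcm3 at -0.00345 and Chaf1a at -0.00433. Brca1 was at -0.00557 with DESeq2 and -0.00652 with the legacy edgeR method. Pola1 was at 0.00181 with limma-voom and 0.00177 with no filter, where Mcm2 was at 0.000207. With CPM of at least 1 in 3 libraries Pole was at -0.000502 and Brca1 at -0.000746. Removing a GC trend, chosen after seeing the data, put Pole at -0.00637, Pola1 at 0.0359 and Chek1 at 0.0362. With a library left out, Pole ranged from -0.0447 to 0.0391, Brca1 from -0.0717 to 0.0842, Pola1 from -0.0548 to 0.0364, Tyms from -0.0583 to 0.0188, Ccne2 from -0.259 to 0.0305, Chek1 from -0.0572 to 0.0511, Mcm2 from -0.00616 to 0.0042 and Prim2 from -0.21 to 0.0345. The lowest count of a member was 620, and how many fragments that stands for is not given in the sources used here.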
